A study of Mus musculus with 22 samples.

Results

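Cytochrome P450 3a enzymes and the receptors that sense foreign compounds were followed in mouse liver under diclofenac, a non-steroidal anti-inflammatory drug. The genes were picked by name: Cyp3a11, Cyp3a13, Cyp3a25 and Cyp3a44, their electron donor Por, and the receptor genes Nr1i2, Nr1i3, Rxra and Ahr. A gene counted as measured where the array annotation gives at least 1 probe set to its symbol alone, and 8 of the 9 genes, with 12 probe sets, met this among 18194 genes on the array. Por had no probe set assigned in the annotation used and was not analysed here.

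All animals were male C57BL6 mice, 8 weeks old, that received intraperitoneal injections once a day. The diclofenac groups had the sodium salt at 30 mg/kg, and the saline groups had matching amounts of saline. Livers were taken on day 1, day 3 or day 14, with 3 diclofenac and 3 saline livers on day 1, 3 and 3 on day 3, and 5 and 5 on day 14. RNA of each liver went to 1 Affymetrix array, and a liver below is called by its group and its number in the label. The values are MAS5 array signals on a linear scale, and differences are given as diclofenac minus saline on the log2 scale. A test counted as passed at an adjusted p under 0.05 from limma, with Benjamini-Hochberg adjustment over all genes tested. The liver was taken whole, so that fewer cells of a type and less RNA per cell cannot be told apart.

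Cyp3a enzymes are monooxygenases of the endoplasmic reticulum that oxidise a wide range of drugs and steroids, and they take their electrons from NADPH through the reductase that Por encodes. Nr1i2 encodes the pregnane X receptor PXR and Nr1i3 the constitutive androstane receptor CAR, which bind DNA as heterodimers with the retinoid X receptor RXRa, the product of Rxra. Ligands of PXR and CAR induce Cyp3a11 in mouse liver. Ahr encodes the aryl hydrocarbon receptor, a ligand-activated factor of another family whose best known targets are the Cyp1 genes.

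The Cyp3a genes lie on chromosome 5 of GRCm38.p6, all on the minus strand, with Cyp3a44 at chr5:145773983-145805891, Cyp3a11 at chr5:145854607-145879854 and Cyp3a25 at chr5:145977192-146009644. Cyp3a13 stands apart from this row at chr5:137892933-137925610. The 250 bases before the annotated RefSeq start of each are shown. PXR and CAR act on Cyp3a promoters through repeats of short hexamers. Whether letters in these windows bear on the diclofenac values was not tested. Capitals mark AGGTCA or AGTTCA on either strand, which are letter matches and not shown to be sites. The windows are chr5:145879855-145880104 for Cyp3a11, chr5:137921620-137921869 for Cyp3a13, chr5:146009619-146009868 for Cyp3a25 and chr5:145805875-145806124 for Cyp3a44, each read 5′ to 3′ on the minus strand.
Cyp3a11 promoter: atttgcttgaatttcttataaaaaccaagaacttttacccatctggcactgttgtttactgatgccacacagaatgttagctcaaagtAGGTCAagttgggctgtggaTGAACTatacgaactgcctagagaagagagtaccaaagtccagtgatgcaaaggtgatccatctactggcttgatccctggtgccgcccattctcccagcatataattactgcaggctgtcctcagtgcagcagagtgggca
Cyp3a13 promoter: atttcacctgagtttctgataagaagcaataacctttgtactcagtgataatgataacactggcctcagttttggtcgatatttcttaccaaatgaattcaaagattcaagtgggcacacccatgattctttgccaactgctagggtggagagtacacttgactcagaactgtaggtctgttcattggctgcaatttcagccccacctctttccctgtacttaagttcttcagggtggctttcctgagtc
Cyp3a25 promoter: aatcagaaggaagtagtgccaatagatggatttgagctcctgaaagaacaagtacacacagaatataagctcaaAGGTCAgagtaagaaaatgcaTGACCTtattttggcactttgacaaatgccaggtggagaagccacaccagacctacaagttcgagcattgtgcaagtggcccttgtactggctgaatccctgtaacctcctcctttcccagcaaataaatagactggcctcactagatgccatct
Cyp3a44 promoter: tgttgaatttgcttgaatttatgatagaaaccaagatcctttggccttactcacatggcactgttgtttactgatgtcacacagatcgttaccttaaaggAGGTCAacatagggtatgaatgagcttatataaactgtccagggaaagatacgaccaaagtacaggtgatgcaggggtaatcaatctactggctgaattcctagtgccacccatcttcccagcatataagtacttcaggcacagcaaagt

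Cyp3a11 held AGGTCA with its first base at -162 from the start and AGTTCA at -142, read there as its reverse complement TGAACT. Cyp3a25 held AGGTCA at -176 and again at -155, and Cyp3a44 held it at -150. The Cyp3a13 window held neither hexamer. Further letters were searched on both strands. The glucocorticoid receptor hexamer TGTTCT was found in Cyp3a25 at -206 and in none of the other 3 windows. TATA box letters TATAAA were found in Cyp3a11 at -234 and in Cyp3a44 at -122, and not in the windows of Cyp3a13 and Cyp3a25. The core GCGTG of the aryl hydrocarbon receptor element and the D-box letters TTATGNAA were in none of the 4. Of 32536 windows of this length in the RefSeq table, 14.04% held the letters AGGTCA and 11.84% held the letters AGTTCA. The glucocorticoid receptor hexamer was in 16.03%, the aryl hydrocarbon receptor core in 28.35%, the TATA box letters in 12.31% and the D-box letters in 3.07%. After global alignment, the Cyp3a11 and Cyp3a44 windows shared 76.0% of their bases, and the other pairs shared 53.6% to 58.0%. The start used for Cyp3a13 lies inside the span given for that gene, whose span begins upstream of it. Cyp3a genes are similar enough in sequence that a probe set can also take up RNA of a paralog, and values of single members are uncertain to that extent.

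On all 22 arrays the deposited signals shared the same trimmed mean, and array medians ran from 75.2 to 89.9. In 2 diclofenac livers the neutrophil markers stood apart. The summed signal of 8 neutrophil marker genes was 21729 in day 1 replicate 2 and 24272 in day 14 replicate 3, against 673 to 3050 in the other 9 diclofenac livers and 350.3 to 1154 in the 11 saline livers. The main values are given below with these 2 livers and, where they move, without them. RNA integrity controls, the 3′ over 5′ signal of housekeeping transcripts on the log2 scale, averaged 0.58 in diclofenac and 0.59 in saline livers on day 1, 0.83 and 0.78 on day 3, and 0.74 and 0.62 on day 14.

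Cyp3a13 was the member with a diclofenac effect that passed the test. In mouse it is expressed in liver and intestine. Its day 1 signals were 11842, 22691 and 12802 in diclofenac livers, against 7682, 8094 and 10055 in saline livers. On day 3 they were 12468, 11384 and 9938 in diclofenac livers and 6737, 7915 and 6648 in saline livers. Day 14 gave 16999, 21450, 20253, 19407 and 18899 in diclofenac livers, against 16790, 15860, 14798, 12320 and 11175 in saline livers. On each of the 3 days, every diclofenac liver lay above every saline liver of that day. This held for 57 of the 11692 genes that could be compared on all 3 days, which is 0.488%.

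The log2 difference of Cyp3a13 was 0.82 on day 1 (SE 0.20, n = 3 each), 0.66 on day 3 (SE 0.20, n = 3 each) and 0.46 on day 14 (SE 0.13, n = 5 each). Days 1 and 3 were fitted together, and none of these differences passed, with limma adjusted p of 0.231, 0.245 and 0.237. In fits to the arrays of 1 day alone, the day 3 difference passed (SE 0.10, limma adjusted p = 0.0186). The day 1 difference did not (limma adjusted p = 0.570). Averaged over the 3 days, the difference was 0.65 (SE 0.10, limma adjusted p = 0.00268), or 1.57-fold, and Cyp3a13 rose with diclofenac by this measure. An exact permutation test within days gave the mean a two-sided p of 2e-05, the smallest that 100800 arrangements of the livers allow. Of 13340 genes tested for the mean effect, 165 were higher in diclofenac livers (1.24%) and 59 were lower (0.442%). Cyp3a13 was 22nd by p among all of them and 89th by size among those that were higher.

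The day 1 value of Cyp3a13 leaned on replicate 2, 1 of the 2 livers with high neutrophil markers. Without it the day 1 difference was 0.53 (limma adjusted p = 0.403). The day 3 difference of 0.66, which shares its error estimate with day 1, then passed (limma adjusted p = 0.0128). With both such livers left out, an alternative chosen after seeing the data, the mean effect was 0.55 (limma adjusted p = 0.000528).

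**Figure D1:**
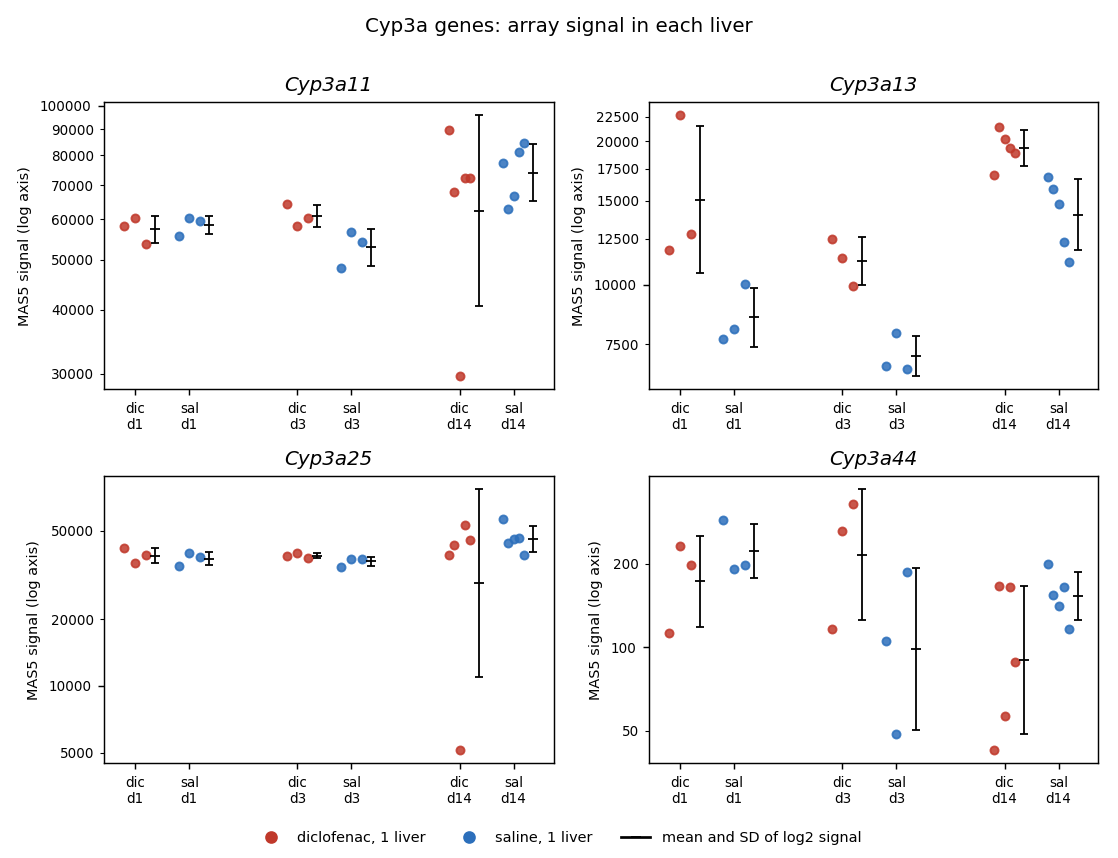
MAS5 signal (log axis) of the 4 Cyp3a genes in each liver, diclofenac (dic, red) and saline (sal, blue), on days 1, 3 and 14, with the mean and SD of the log2 signal beside each group. The Cyp3a13 diclofenac livers lie above the saline livers of their day throughout, while 1 diclofenac liver on day 14 (replicate 3) lies at 29642 for Cyp3a11 and 5127 for Cyp3a25, far below the rest.

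Cyp3a11, the main PXR-inducible Cyp3a of mouse liver, showed no difference that passed the test. On day 1 its signals were 58287, 60300 and 53662 in diclofenac livers, against 55765, 60285 and 59436 in saline livers, and the groups overlapped. Day 3 gave 64149, 58256 and 60483 in diclofenac livers and 48221, 56777 and 54089 in saline livers, without overlap. At day 14 the diclofenac livers had 89816, 67943, 29642, 72198 and 72313, and the saline livers had 77423, 62932, 66555, 81049 and 84690. The low value is replicate 3, and the other 4 diclofenac livers fall among or above the saline livers. The log2 differences were -0.03 on day 1 (SE 0.08), 0.20 on day 3 (SE 0.08) and -0.25 on day 14 (SE 0.26), with limma adjusted p of 0.912, 0.381 and 0.733. Without replicate 3 the day 14 difference was 0.02 (SE 0.12, limma adjusted p = 0.961).

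Cyp3a25, a further liver enzyme of the family, likewise had no difference that passed the test. Its signals on day 3 were 38309, 39682 and 37587 in diclofenac livers, against 34370, 37419 and 37256 in saline livers, and did not overlap. On day 1 they overlapped, between 35573 and 41563 in diclofenac livers and between 34674 and 39649 in saline livers. At day 14 the diclofenac livers had 38723, 42875, 5127, 52955 and 45387, and the saline livers had 56214, 43991, 45823, 46353 and 38768. Again replicate 3 alone was low. The log2 differences were 0.05, 0.08 and -0.66 on days 1, 3 and 14 (SE 0.08, 0.08 and 0.54), none of which passed (limma adjusted p = 0.842, 0.754 and 0.667). Without replicate 3 the day 14 value was -0.04 (SE 0.12).

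Cyp3a44 is known as a female-predominant enzyme of mouse liver. In these males its signal was low, at percentile 36.3 to 73.9 of the probe sets of an array. It was above the median of its own array in 19 of 22 livers. No detection calls were used, so its presence and its differences are uncertain. On day 1 it was 113, 232 and 198 in diclofenac livers, against 288, 192 and 198 in saline livers. Day 3 gave 117, 263 and 328 in diclofenac livers and 105, 48.5 and 187 in saline livers. Day 14 gave 42.4, 166, 56.7, 165 and 88.5 in diclofenac livers, against 200.5, 154, 141, 165 and 116 in saline livers. The groups overlapped on every day. Its log2 differences of -0.36, 1.13 and -0.77 on days 1, 3 and 14 had standard errors of 0.49, 0.49 and 0.38, and the mean over days was 0.00 (SE 0.28). None passed the test (limma adjusted p = 0.778, 0.418, 0.494 and 0.999).

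Within the same arrays, the diclofenac difference of Cyp3a13 was set against that of each paralog, a contrast chosen after the values were seen and so given with no test. Over the 3 days it exceeded that of Cyp3a11 by 0.67 on the log2 scale, and by 0.49 with both livers of high neutrophil markers left out. For Cyp3a25 the excess was 0.83, and 0.50 without these livers. On day 3, where neither of these livers enters, the excess was 0.46 and 0.58. Against Cyp3a44 the direction changed between days, with 1.18 on day 1, -0.47 on day 3 and 1.23 on day 14. A ratio of this kind shows unequal change of signal and not which gene stayed level. By signal among 45101 probe sets, Cyp3a11 ranked 9 to 261, Cyp3a25 72 to 1637 and Cyp3a13 345 to 1390 over the arrays. Whether signals this high stay proportional to RNA was not tested.

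**Figure D2:**
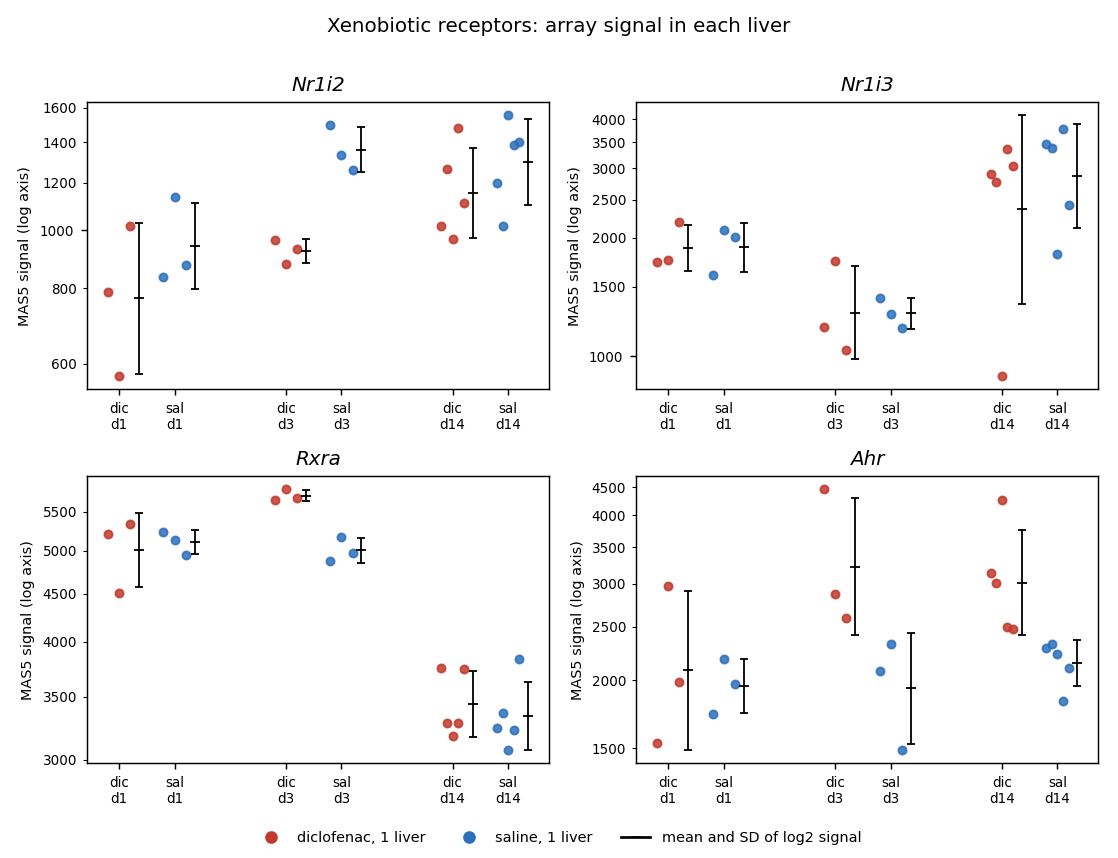
MAS5 signal (log axis) of Nr1i2, Nr1i3, Rxra and Ahr, each at its probe set of highest mean signal, in each liver by treatment and day, with the mean and SD of the log2 signal. On day 3 the diclofenac livers lie below the saline livers for Nr1i2 and above them for Rxra and Ahr, and for Ahr they lie above them again on day 14.

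Nr1i2, which encodes PXR and lies at chr16:38248349-38294849, had its clearest separation on day 3. Its brighter probe set gave 963, 879 and 931 in diclofenac livers, against 1496, 1336 and 1261 in saline livers, so that all diclofenac livers lay below all saline livers. The second probe set separated them in the same direction, with 491, 478 and 556 in diclofenac livers and 714, 730 and 737 in saline livers. On day 1 the brighter one gave 788, 571 and 1017 in diclofenac livers and 837, 1136 and 876 in saline livers. At day 14 it gave 1014, 1267, 967, 1479 and 1109 in diclofenac livers, against 1196, 1017, 1554, 1386 and 1401 in saline livers, and the groups overlapped on both days.

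The log2 differences of Nr1i2 were -0.29, -0.56 and -0.17 on days 1, 3 and 14 (SE 0.18, 0.18 and 0.15, limma adjusted p = 0.522, 0.283 and 0.687). The mean over days was -0.34 (SE 0.10, 0.79-fold), which missed the threshold across all genes (limma adjusted p = 0.0979), while the exact permutation test of this single gene gave a two-sided p of 0.00929. Of the day 1 livers, the lowest value again came from diclofenac replicate 2. The mean was -0.25 (limma adjusted p = 0.174) with both livers of high neutrophil markers left out. Leaving out diclofenac day 1 replicate 3 instead brought it past the threshold (limma adjusted p = 0.0369). On day 3, a fit to that day's arrays alone also called it (limma adjusted p = 0.0419).

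Nr1i3, the CAR gene at chr1:171213934-171218845, did not differ beyond the spread between livers. On day 1 its signals were 1731, 1751 and 2198 in diclofenac livers, against 1604, 2094 and 2010 in saline livers. Day 3 gave 1188, 1746 and 1037 in diclofenac livers and 1409, 1279 and 1176 in saline livers. At day 14 they were 2911, 2767, 888, 3364 and 3050 in diclofenac livers and 3467, 3377, 1817, 3784 and 2424 in saline livers. Groups overlapped on all days, with replicate 3 lowest on day 14. Its log2 differences were -0.01, 0.01 and -0.28 (SE 0.18, 0.18 and 0.35), and 0.07 on day 14 without that liver (SE 0.19). The adjusted p values of the 3 days were 0.993, 0.994 and 0.780 (limma).

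Rxra, the shared heterodimer partner at chr2:27676445-27763319, was represented by 3 probe sets. Of these, 1 was below the array median on every array and is used further only where all probe sets of a gene are averaged. On day 3 the brightest gave 5662, 5811 and 5687 in diclofenac livers, against 4873, 5171 and 4968 in saline livers, without overlap. The difference was 0.19 on the log2 scale (SE 0.08, limma adjusted p = 0.408) and did not pass. The second probe set overlapped on that day and had a difference of -0.07 (SE 0.13), so that the 2 probe sets did not share a direction. On days 1 and 14 the brightest differed by -0.03 (SE 0.08) and 0.04 (SE 0.09), and the mean over days was 0.07 (SE 0.05, limma adjusted p = 0.490).

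Ahr lies at chr12:35497979-35534989 and had 1 probe set above the array median throughout and 1 that was so on 6 arrays. The dimmer one had differences of -0.65 on day 1 and 0.10 on day 3 (SE 0.62 each) and of -0.26 in the mean (SE 0.41, limma adjusted p = 0.778), a direction opposite to that of the brighter one on day 1 and in the mean. The brighter probe set gave 4466, 2877 and 2596 in diclofenac livers on day 3, against 2079, 2325 and 1487 in saline livers. At day 14 it gave 3132, 3004, 4270, 2500 and 2480 in diclofenac livers and 2293, 2326, 2229, 1832 and 2100 in saline livers. In both cases all diclofenac livers were above all saline livers. Day 1 signals of 1534, 2972 and 1983 in diclofenac livers and 1734, 2181 and 1963 in saline livers overlapped.

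The log2 differences of Ahr were 0.09, 0.74 and 0.49 on days 1, 3 and 14 (SE 0.25, 0.25 and 0.15, limma adjusted p = 0.898, 0.294 and 0.274), and 0.44 in the mean (SE 0.13, 1.36-fold, limma adjusted p = 0.0781). As a single gene, its exact permutation tests gave two-sided p of 0.00794 on day 14, the smallest that 5 against 5 allow, and 0.00736 for the mean. The highest day 1 and day 14 values came from the 2 livers with high neutrophil markers, and without both the mean was 0.31 (limma adjusted p = 0.118). Without diclofenac day 1 replicate 1 it was called (limma adjusted p = 0.0310).

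**Figure D3:**
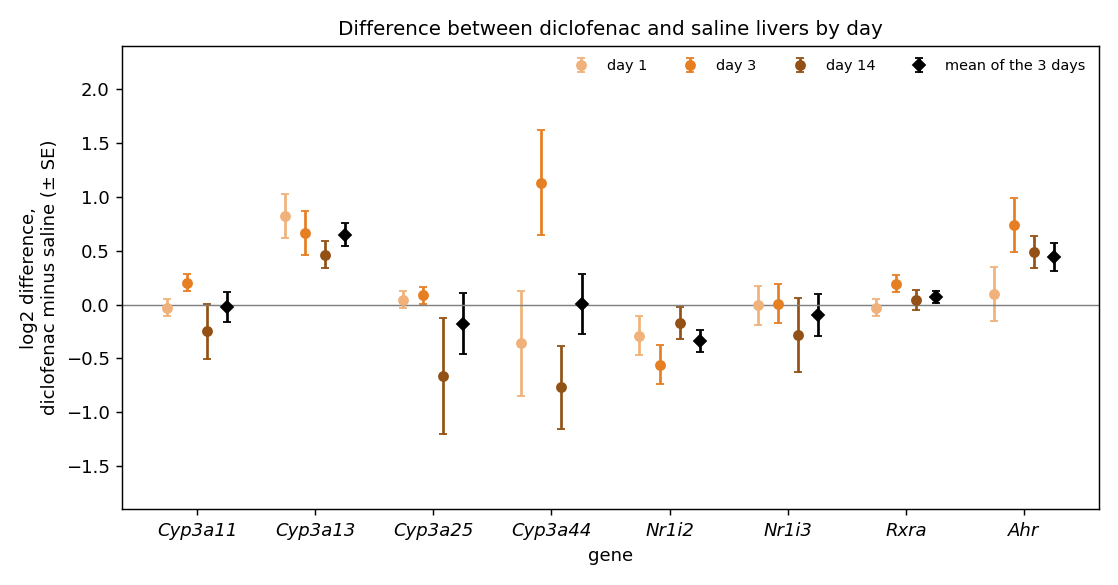
Log2 difference, diclofenac minus saline, of each gene on days 1, 3 and 14 and as the mean of the 3 days, with limma standard errors. Cyp3a13 lies above 0 on each day at 0.82, 0.66 and 0.46, Nr1i2 lies below 0 on each day, and the wide bars of Cyp3a25 and Nr1i3 on day 14 contain replicate 3.

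Across the 8 members, 0 passed the test on day 1, where 0 of 12884 genes (0%) passed and the smallest adjusted p was 0.144 (limma). On day 3 it was 0 of 8 members, beside 26 of 12884 genes (0.202%), and on day 14 it was 0 of 8, beside 0 of 11884 genes (0%). At an unadjusted p under 0.05, 1, 6 and 2 of 8 members passed on days 1, 3 and 14 (limma), beside 13.0%, 10.8% and 10.8% of all genes. The methods' t-test with its 1.5-fold limit passed 1 member on day 3, Cyp3a13, and none on the other days. Over all genes it passed 188 of 12884 on day 1, 321 of 12884 on day 3 and 284 of 11884 on day 14.

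By separation of the groups, 1 of 8 members was higher in all diclofenac livers on day 1, beside 8.23% of genes, and 0 were lower, beside 8.1%. Day 3 had 5 members higher (Cyp3a11, Cyp3a13, Cyp3a25, Rxra and Ahr), beside 10.8% of genes, and 1 lower (Nr1i2), beside 9.21%. Divided by the array median, Cyp3a25 overlapped on day 3, at 457.3 to 499.7 in diclofenac and 456.7 to 494.1 in saline livers. On that scale the lowest Cyp3a11 diclofenac liver was at 717.9 and the highest saline liver at 717.4. The second Rxra probe set overlapped on that day. Day 14 had 2 higher (Cyp3a13 and Ahr), beside 2.18%, and 0 lower, beside 1.6%. The members share arrays and regulators and are not independent of each other.

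Effects were also compared between days. Neither difference of effects passed for a member: 0 of 8 for day 3 minus day 1, where 0 of 12884 genes passed (0%), and 0 of 8 for day 14 minus the mean of days 1 and 3, where 3 of 13340 passed (0.0225%). At an unadjusted p under 0.05, 1 of 8 members passed in each (limma), beside 5.39% and 6.45% of all genes. It was Cyp3a44 in both, with 1.49 (SE 0.69, limma adjusted p = 0.881) and -1.15 (SE 0.54, limma adjusted p = 0.771). For Cyp3a13 the same differences were -0.16 (SE 0.29) and -0.28 (SE 0.20).

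**Figure D4:**
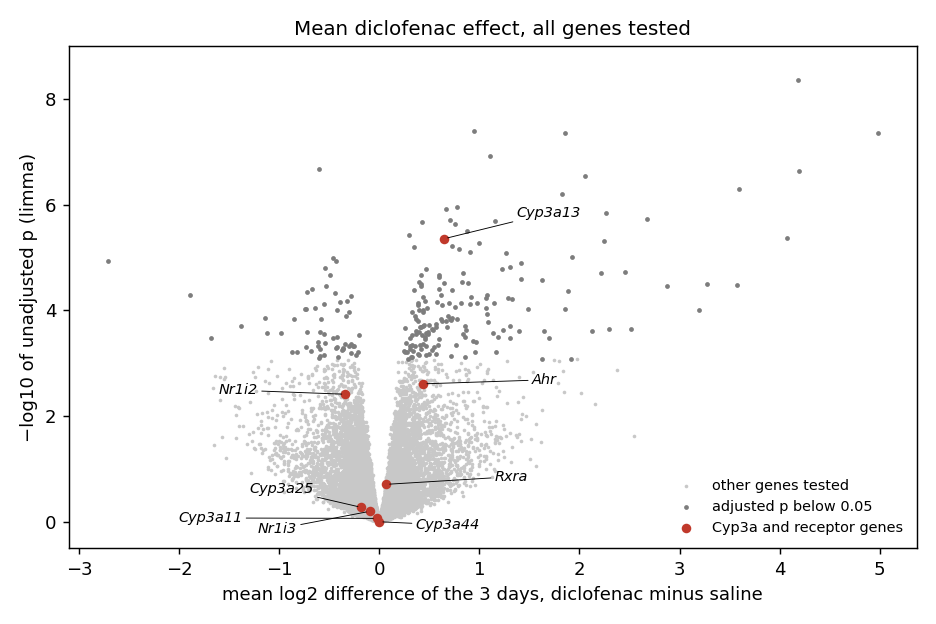
Mean log2 difference of the 3 days, diclofenac minus saline, against -log10 of the unadjusted limma p for 13340 genes, with genes past the adjusted threshold in dark grey and the 8 Cyp3a and receptor genes in red. Cyp3a13 lies among the called genes at 0.65, Ahr (0.44) and Nr1i2 (-0.34) lie below them, and the other 5 lie near 0.

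Of the listed receptor targets and partners that could be tested, Cyp3a genes left out, none passed in the mean effect. In that comparison 18.5% of all genes had an unadjusted p under 0.05 (limma). Of 18 target genes of PXR and CAR, 0 passed in the mean effect, with a median difference of -0.08 on the log2 scale, beside -0.005 over all genes, and 6 had an unadjusted p under 0.05 (limma). On days 1, 3 and 14 none of the 17, 17 and 18 tested passed, and their medians were -0.06, 0.11 and -0.43. Among 6 partners and targets of the aryl hydrocarbon receptor, 0 passed in the mean (median -0.08, 1 with an unadjusted p under 0.05, limma). The 6 tested genes of P450 electron donors without Por, the 9 of heme synthesis and breakdown, the 11 of retinoid X receptor isoforms and partners, the 10 receptor cofactors and chaperones, the 10 liver factors that act on Cyp3a, PXR and CAR genes, and the 15 clock genes likewise had 0 past the test in the mean. Their medians lay between -0.12 and -0.08, and 1, 1, 1, 3, 5 and 4 of them had an unadjusted p under 0.05 (limma). With the 2 livers of high neutrophil markers left out, 1 target and 1 liver factor passed, both lower: Gsta2, a glutathione transferase (-1.02, limma adjusted p = 0.00784, against 0.0725 with all livers), and Foxa1, a forkhead factor (-0.46, limma adjusted p = 0.0386, against 0.0662). The median of the 18 targets was then 0.07.

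Acute phase genes, plasma proteins of the hepatocyte that inflammation induces, moved with diclofenac. Of 17 such genes, 13 were higher in the mean effect and 0 lower, with a median of 1.11, and on day 3 it was 6 higher and 0 lower. Without the 2 livers, 15 were higher and 0 lower in the mean (median 0.98). Saa2, a serum amyloid A, rose by 4.19 on the log2 scale in the mean (SE 0.55, limma adjusted p = 0.000451) and Lcn2, the siderophore-binding lipocalin, by 4.19 (SE 0.43, limma adjusted p = 5.81e-05). Orm2, an orosomucoid, and Orm3, another, rose by 3.60 (SE 0.50) and 2.67 (SE 0.41, limma adjusted p = 0.000742 and 0.00166). The summed acute phase signal ran from 547194 to 774273 in diclofenac livers and from 314831 to 429368 in saline livers on day 1, from 519438 to 645216 and from 294242 to 308607 on day 3, and from 663155 to 1526398 and from 309425 to 540466 on day 14. It thus separated the treatments on each day, as Cyp3a13 did, and its part in the Cyp3a13 and receptor values was not tested.

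Of 7 tested neutrophil markers, 2 passed in the mean effect, with a median of 0.88 over the list. They were S100a8 and S100a9, the calprotectin subunits, which rose by 3.57 and 3.28 (SE 0.67 and 0.62, limma adjusted p = 0.00819 and 0.00808). Without the 2 livers of high summed signal, the same 2 passed at 2.73 and 2.50 (limma adjusted p = 0.000603 and 0.000446), and the median of the list was 0.34. None of 12 Kupffer cell and macrophage markers passed, while 9 had an unadjusted p under 0.05 (limma), beside the 18.5% of all genes, and the median was 0.55. Without the 2 livers 1 of them passed, the scavenger receptor gene Marco (1.35, limma adjusted p = 0.0398). Of 9 general hepatocyte markers 0 passed (median 0.05, 1 with an unadjusted p under 0.05, limma), and their summed signal on day 14 was 617476 to 792224 in diclofenac livers and 572863 to 740671 in saline livers. Single markers passed in 3 more lists, and the rest of each list did not pass. Of 8 pericentral hepatocyte genes, Rnase4 rose by 0.40 (limma adjusted p = 0.00779). Of 7 stellate cell genes, Reln fell by 0.58 (limma adjusted p = 0.0175). Of 2 proximal intestine genes, Fabp2, an intestinal fatty acid-binding protein, fell by 0.85 (limma adjusted p = 0.0175). Their part in the member values was not tested.

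Replicate 3 of the diclofenac livers on day 14 held the lowest values of Cyp3a11, Cyp3a25, Nr1i2 and Nr1i3, and also the highest Ahr value of that day. It was singled out after its values were seen, so that what follows describes 1 liver and carries no test. Its log2 distance from the mean of the other 4 diclofenac livers was -3.12 for Cyp3a25 and -1.76 for Nr1i3. Of 18 PXR and CAR targets, 14 (77.8%) were below all 9 other livers of day 14, as were 27.6% of 13340 genes.

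Of the 18, 1 target, the estrogen sulfotransferase gene Sult1e1, was above all 9, at 6728 against 402 to 1525 in the other 4 diclofenac livers and 115 to 558 in saline livers. The low targets included Cyp2b10, the classical CAR target, at 411 in this liver, against 2081 to 5692 in the other 4 diclofenac livers and 2098 to 5820 in saline livers. Cyp2c37, another inducible P450, was at 2307, against 13178 to 18981 in the other 4 and 9494 to 21565 in saline livers. Gsta2, a glutathione transferase, was at 74.9, against 818 to 1833 in the other 4 and 2480 to 7355 in saline livers. Ppara, the fatty acid receptor that also pairs with RXRa, was at 789, against 2312 to 3725 in the other 4 and 2943 to 4385 in saline livers.

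At the same time 16 of 17 acute phase genes were above all 9 other livers, as were 27.3% of all genes, and so were 7 of 7 tested neutrophil markers and 11 of 12 Kupffer cell and macrophage markers. Summed hepatocyte markers in this liver were 714054, inside the range of 617476 to 792224 of the other 4 diclofenac livers. Zonal hepatocyte genes were lower, with 6 of 8 pericentral markers (75.0%) and 5 of 7 periportal markers (71.4%) below all 9 other livers. Of the 8 members, 4 (50.0%) were below all 9 other livers, beside 27.6% of all genes: Cyp3a11, Cyp3a25, Nr1i2 and Nr1i3. Ahr was above all 9. Cyp3a13, Cyp3a44 and Rxra were neither, with Cyp3a13 at 20253 in this liver against 16999 to 21450 in the other 4. What set this liver apart was not tested.

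Saline livers were compared between times for what the members do without the drug. Between day 3 and day 1, 0 of 8 members passed, beside 28 of 12884 genes (0.217%), and 3 had an unadjusted p under 0.05 (limma), as had 10.4% of all genes. These were Nr1i3 (-0.56, SE 0.18), Nr1i2 (0.53, SE 0.18) and Cyp3a44 (-1.17, SE 0.49), with limma adjusted p of 0.265, 0.309 and 0.426. The second Nr1i2 probe set gave 0.16 (SE 0.13, limma adjusted p = 0.705). Day 14 minus the mean of the day 1 and day 3 saline livers was far broader, with 12.4% of 13340 genes higher and 16% lower. Of the 8 members, each at its brightest probe set, 2 were higher and 1 was lower. Nr1i2 did not pass at that probe set (0.20, SE 0.14, limma adjusted p = 0.33). Its second probe set was higher by 0.36 (SE 0.12, limma adjusted p = 0.0244 over all probe sets).

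Cyp3a13 signals in saline livers were 16790, 15860, 14798, 12320 and 11175 on day 14, against 7682, 8094 and 10055 on day 1 and 6737, 7915 and 6648 on day 3. The day 14 livers were all above the earlier ones, by 0.85 on the log2 scale (SE 0.14, limma adjusted p = 0.000169). Nr1i3 rose by 0.88 (SE 0.27, limma adjusted p = 0.0172), with 1817 to 3784 on day 14 and 1176 to 2094 earlier, which overlap. Without saline day 14 replicate 4 the Nr1i3 call was lost (limma adjusted p = 0.0522). Cyp3a11 and Cyp3a25 differed by 0.41 and 0.32 (SE 0.19 and 0.39) and did not pass (limma adjusted p = 0.107 and 0.587). With diclofenac day 14 replicate 3 out of the shared error estimate, they passed (limma adjusted p = 0.000840 and 0.00806).

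The 2 brighter Rxra probe sets moved in opposite directions between these times. The brightest gave 3237, 3362, 3075, 3224 and 3836 in saline livers of day 14, against 5238, 5138 and 4943 on day 1 and 4873, 5171 and 4968 on day 3. That is a fall by 0.60 on the log2 scale (SE 0.07, limma adjusted p = 3.88e-06), with no overlap. The other gave 954, 856, 824, 920 and 913 on day 14, against 700.1, 554 and 622 on day 1 and 620.0, 633 and 669 on day 3. It was higher by 0.50 (SE 0.09, limma adjusted p = 0.000185 over all probe sets), so that no single direction can be given for the gene.

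**Figure D5:**
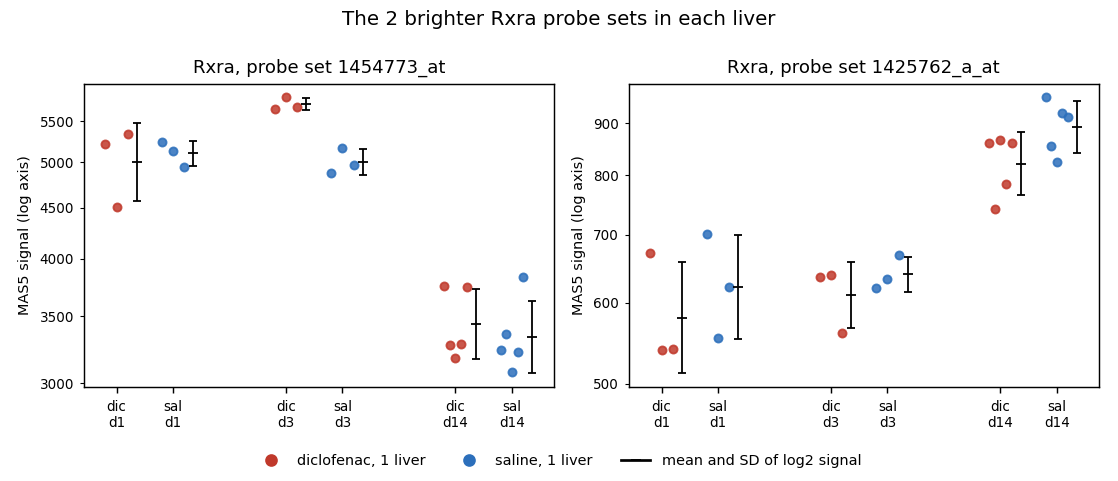
MAS5 signal (log axis) of the 2 brighter Rxra probe sets in each liver by treatment and day, with the mean and SD of the log2 signal. On day 14 the first lies below its earlier saline values by 0.60 on the log2 scale and the second lies above them by 0.50.

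Age, number of injections, time of killing and handling may all differ between these days and cannot be told apart, so other genes that shifted between the saline times are given beside these values. Clock genes shifted widely, 5 of 15 higher and 5 lower: Dbp, a clock output factor, had a log2 difference of -4.40 and Nr1d1, the REV-ERBa gene, one of -4.005, while Npas2 had 3.61 and Arntl, the BMAL1 gene, 1.63 (SE 0.42, 0.45, 0.54 and 0.19, each with a limma adjusted p of 4.62e-05 or less). Hepatocyte markers were higher in 9 of 9 cases (median 0.60) and Kupffer cell and macrophage markers lower in 11 of 12 (median -1.56). The summed signal of the Kupffer cell and macrophage markers was 6487 to 16722 on day 14 and 23263 to 36959 on day 1, and 28822 to 31189 on day 3. The 18S ribosomal RNA control of the array averaged 15.35 on the log2 scale in saline livers of day 14, 12.05 on day 1 and 14.68 on day 3. PXR and CAR targets had 4 of 18 higher and 6 lower. Their part in the member differences was not tested.

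Por was not measured, and the other genes of the electron donor list do not stand in for it. Between the saline times, Cyb5b, an outer mitochondrial cytochrome b5, had a log2 difference of -1.43 (SE 0.14). Cyb5r3, the cytochrome b5 reductase, had -0.97 (SE 0.11) and Fdx1, the mitochondrial ferredoxin, -0.94 (SE 0.15). Pgrmc2, a membrane heme-binding protein, had 0.43 (SE 0.11). The limma adjusted p of the 4 lay between 2.93e-07 and 0.00526. Of 6 tested donors, 1 was higher and 3 were lower. Of 6 tested partners and targets of the aryl hydrocarbon receptor, 2 were lower and none higher, beside 16% and 12.4% of all genes. They were Cyp1a1 and Cyp1a2, with log2 differences of -1.36 and -1.04 (SE 0.46 and 0.25, limma adjusted p = 0.0312 and 0.00386). Cyp1a1 was low, at 26.8 to 88.4 in saline livers of day 14, against array medians of 75.2 to 89.9 over all arrays. Ahr itself differed by 0.15 (SE 0.18, limma adjusted p = 0.577).

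The genes most like each member were found by Pearson's r of log2 signal over the 22 arrays among 13340 genes, a description that day and treatment differences enter. Cyp3a13 was nearest to Rad51b (0.88), Usp15 (0.88) and Grn, the progranulin gene (0.88), with r of 0.59, 0.60 and 0.77 after group means were removed. Cyp3a11 was nearest to Hpd, a tyrosine-degrading enzyme (0.93), Pgrmc1 (0.92) and Ppp1r3c (0.91). Cyp3a25 was nearest to Slc47a1 (0.95), Ces1d (0.95) and Fam89a (0.95), but without diclofenac day 14 replicate 3 these were 0.40, 0.21 and 0.58, so that they rest largely on that liver. For Cyp3a44 they were 4931406H21Rik (0.78), Ranbp6 (0.77) and Clrn3 (0.75).

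Of the receptors, Nr1i2 was nearest to Klf15 (0.89), Gnpda1 (0.84) and Mmut (0.83), and Nr1i3 to Acad11 (0.92), Kdsr (0.91) and Chpt1 (0.90). Rxra at its brightest probe set was nearest to Cyb5b (0.98), Macroh2a1 (0.96) and Nat8f1 (0.95), and Ahr to Lpgat1 (0.86), Tacc2 (0.86) and Il1r1 (0.85). After group means were removed, r was 0.76, 0.63 and 0.72 for Nr1i2 and 0.87, 0.84 and 0.86 for Nr1i3. It was 0.88, 0.56 and 0.65 for Rxra and 0.77, 0.71 and 0.69 for Ahr. Between members the highest r over 22 arrays was 0.80, for Cyp3a11 and Cyp3a25. It was 0.56 without diclofenac day 14 replicate 3. For Cyp3a13 against Cyp3a11 and Cyp3a25 it was 0.18 and -0.12 over 22 arrays, and 0.57 and 0.57 over 21, so that 1 liver sets the sign for the second pair.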

How the data were processed

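Total liver RNA of 22 mice was hybridised to Affymetrix mouse arrays, 1 per liver. The labels state 5 mice per group, and 3 or 5 arrays per group were used here. The deposited values are intensity signals on a linear scale that the authors made with MAS5, per the submitters' processing notes and the methods, which also name a global normalization on the median. In the table each array has a trimmed mean of 500.0 after 2% at either end is left out. The genome build behind the array annotation is not given in the sources used here, and gene positions and promoters are from RefSeq on GRCm38.p6. Of 45101 probe sets, 34958 carry 1 gene symbol and were used, 932 carry several and 9211 none. No detection calls or scan dates were used, and the number of arrays limits the precision.

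Signals were taken to log2. A gene was represented by its probe set of highest mean signal and tested where that lay above the array's own median on at least 3 arrays of the model. Linear models with moderated variances and a trend were fitted in limma 3.58.1 (R 4.3.3) to 12 arrays (days 1 and 3), 10 arrays (day 14) or all 22 (mean effect and comparisons with day 14), two-sided, with Benjamini-Hochberg adjustment over all genes tested and a threshold of 0.05. Exact permutation tests counted all splits of the livers within days. Nothing in the labels says which livers shared a cage or a day of extraction. Promoters were aligned with Biopython 1.88, and other steps ran in Python 3.11.15 (pandas 2.3.3, matplotlib 3.10.9, numpy 2.4.6). The fits were tested on simulated data.

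The members, gene lists and tests were chosen with earlier results of these data known. Genes were named by a rule: all members with every probe set, up to 4 genes per list and comparison that passed the test, and for each member the 3 genes of highest r. Genes of the single liver described on day 14 were chosen after their values were seen. Equal replicate numbers did not pair the livers, since 1 of 11 pairs had a correlation of deviations over 0.1. Alternatives were other filters, scalings, offsets and probe set rules, other sets of arrays, array weights, a replicate block, the methods' t-test and leaving out each array.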

Additional observations from a re-analysis of the deposited data

Results flagged for a closer look

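Among 24 groups of 5 livers (12 probe sets on day 14), 4 had a lowest liver farther from the rest than Dixon's 95% critical value of 0.71, where chance gives about 1.2. All 4 are replicate 3 of the diclofenac group. They are Cyp3a11 with a signal of 29642 (gap over range 0.748), Cyp3a25 with 5127 (0.866), the second Nr1i2 probe set with 540.1 (0.761) and Nr1i3 with 888 (0.853).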

How the results depend on the processing

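Of 458 member values under settings other than leaving out 1 array, 433 kept their direction and side of the threshold, and of 584 with 1 array left out, 553 did. Cyp3a13 passed in the mean effect without any single array (limma adjusted p from 0.00114 to 0.0113). The cause of the changes below was not tested, and the number of arrays per day limits the single-day tests.

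Genes called on day 1 (0) became 188 at the thresholds of the methods' t-test. On day 3 (26) they were 16 with no filter, 13 with the mean of all probe sets, 145 with each day on its own arrays, 1 with all 22 arrays in a model, 156 with array weights, and 0 or 321 by the methods' t-test after adjustment or at its thresholds. Members called on day 3 (0) were 2 with each day on its own arrays (Cyp3a13 and Nr1i2) and 1 with array weights or at the methods' thresholds (Cyp3a13). On day 14 (0) genes called were 3 with quantile normalization, 15 with median-centred arrays, 2 with the median signal added, 133 with all 22 arrays, 109 with array weights and 284 at the methods' thresholds. For the mean effect (224) they were 484 with array weights and 365 with the 2 livers of high neutrophil markers left out, a setting chosen after seeing the data.

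For the day 14 effect minus the early effect (3) the counts were 0 with no filter, 1 with quantile normalization, 0 with centring, 1 with the mean of all probe sets, 0 with every probe set, 14 with array weights and 11 without the 2 livers. For saline day 3 minus day 1 (28) they were 14 with no filter, 2 with the mean of all probe sets, 103 with every probe set and 224 with array weights. For saline day 14 minus earlier (3787) they were 7474 with every probe set. Members called there (3) were 5 without the 2 livers, and Rxra was -0.10 as the mean of all its probe sets, including the one below the array median throughout. The median of all genes in that comparison was -0.06, or -0.11 with quantile normalization and -0.16 with centring.

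Equal replicate numbers did not pair the livers (1 of 11 pairs had a correlation over 0.1, from -0.106 to 0.113). With the replicate block, genes called were 6 on day 3, 1 on day 14 and 0 for the day 14 effect minus the early effect, and members called in the mean effect were 2, with Ahr added (limma adjusted p = 0.0435).

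Small differences that changed sign, none of which passed, were on day 1 Cyp3a25 (-0.0094, quantile), Nr1i3 (0.0013, centring, and 0.0097, array weights), Rxra (0.13, mean of probe sets, and 0.0295, array weights) and Ahr (-0.28, mean of probe sets, and -0.0718, array weights). On day 3 they were Cyp3a25 (-0.0881, quantile) and Nr1i3 (-0.0512, centring), and on day 14 Nr1i3 (0.0411, array weights). In the mean they were Cyp3a11 (0.0437, array weights, and 0.0535, 2 livers out), Cyp3a25 (0.021 and 0.0502), Nr1i3 (0.0323 and 0.041) and Cyp3a44 (-0.0073 with quantile normalization, -0.0097 with centring and -0.0147 with 2 livers out). The day 1 value of Rxra as a mean of probe sets includes the probe set that was below the array median on every array.

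With each array left out in turn, genes called ran from 0 to 5 on day 1, 0 to 178 on day 3, 0 to 123 on day 14, 108 to 536 for the mean effect, 0 to 2 and 0 to 17 for the differences of effects (day 3 minus day 1, and day 14 minus early), 0 to 120 for saline day 3 minus day 1, and 3265 to 4684 for saline day 14 minus earlier. Members called ran from 0 to 1 on day 3, 1 to 2 for the mean effect and 2 to 5 for saline day 14 minus earlier, where Nr1i3 ran from 0.78 to 1.05. Member differences that changed sign ran, on day 1, from -0.064 to 0.0202 (Cyp3a11), -0.0097 to 0.10 (Cyp3a25), -0.12 to 0.0675 (Nr1i3), -0.0741 to 0.0469 (Rxra) and -0.16 to 0.32 (Ahr). They ran from -0.21 to 0.17 on day 3 (Nr1i3), and on day 14 from -0.38 to 0.021 (Cyp3a11) and -0.45 to 0.0704 (Nr1i3). In the mean they ran from -0.0678 to 0.0655 (Cyp3a11), -0.25 to 0.0305 (Cyp3a25), -0.17 to 0.16 (Cyp3a44) and -0.17 to 0.0237 (Nr1i3).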
